A study of Mus musculus with 8 samples.

Results

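The cytosolic ribosomal protein genes encode the proteins that, together with ribosomal RNA, build the large and the small subunit of the cytoplasmic ribosome. They were taken here as the probe sets whose single gene symbol in the array annotation is Rpl or Rps followed by a number, or is Rplp0, Rplp1, Rplp2 or Rpsa. Kinases named Rps6k and pseudogenes were left out. The rule found 49 probe sets of the 12422 non-control probe sets on the array, and they stood for 35 of the 8251 genes with a single symbol, 17 of the large subunit (22 probe sets) and 18 of the small subunit (27 probe sets). All 49 symbols were unchanged in the current gene table. The rule used names only and no measured value.

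The samples were whole lungs of newborn mice. The animals were given oil or retinoic acid when 3 days old, and saline or dexamethasone on day 4. The RA-Dex group received retinoic acid and then dexamethasone, the RA group retinoic acid and then saline, the Dex group oil and then dexamethasone, and the Dil group, a name that no label defines, was taken as oil and then saline because that is the only arm left. Each of the 4 groups had 2 arrays of an Affymetrix mouse expression array, lettered a and b, and the total RNA of the frozen lungs was measured. The labels leave unsaid how a and b relate, whether as different animals, as pools or as the same RNA hybridized again, so p-values here describe the spread between samples that may be technical replicates. For strain, dose and collection time, the sources used here give nothing. The series title names the inhibition and protection of alveolar septation, the division of the newborn lung's air sacs into smaller ones.

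Ribosomal protein genes are among the most highly expressed genes of any growing tissue, and most of their proteins are needed in equal numbers in each subunit. Their mRNAs in vertebrates carry a run of pyrimidines (C and T) at the 5′ end, the terminal oligopyrimidine tract, through which their translation is switched on and off by growth signals acting through the kinase mTOR and the RNA-binding protein Larp1. Control through this tract acts on translation, which an array of total RNA does not measure. Glucocorticoids slow the growth of the newborn lung, whereas retinoic acid, made from vitamin A, is known for promoting septation.

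The pyrimidine tract is the sequence that ties these genes together, so the stretches around it are shown for 5 members whose values are described below. Each was read from the RefSeq promoter sequences of build GRCm38.p6 on the strand of the gene, 5′ to 3′, and capitals mark the pyrimidine run.
Rps10, chr17:27635229-27635253, minus strand: cgcacgCCCCTTCCTTTCCagcctc
Rps18, chr17:33955651-33955673, minus strand: cttccgCTCTCTCTTCCacagga
Rps27, chr3:90213636-90213656, minus strand: ctttcgCTCCTTTCCggcggt
Rpl13a, chr7:45128724-45128749, minus strand: acaagaCCTCCTCCTTTCCCaggcgg
Rpl10a, chr17:28328576-28328597, plus strand: gctctgCCTTCTTTCCggtttc
In Rps10 the run is 13 bases long, in Rps18 11, in Rps27 9, in Rpl13a 14 and in Rpl10a 10. The runs of Rps10, Rps18, Rps27 and Rpl13a begin within 3 bases of an annotated start of their gene. That of Rpl10a begins 17 bases from an annotated start, and another promoter entry of this gene has no run.

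Promoter entries were found for 28 of the 35 genes. An unbroken run of at least 8 letters that were each C or T, read on the gene's strand only and beginning within 50 bases on either side of an annotated start, was present in 20 of the 28 (71.4%). The same search found a run in 10427 of 27025 genes with a promoter entry (38.6%). Among the genes with a tested probe set it was 14 of 22 (63.6%). The run of Rpl38 also began within 3 bases of a start, but others lay further off, such as those of Rpl6 (31 bases) and Rpl41 (40 bases). These shares are therefore not shares of genes with a tract at the 5′ end of the mRNA. For Rplp0, Rpsa, Rps3, Rps4x, Rps13 and Rps28, all described below, no such run was found in the window, which says only that these letters are not there.

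The deposited values are signals on a linear scale, 1 per probe set and array. The trimmed means of the arrays were equal to within a ratio of 1.00004, median signals lay between 317 and 343, and on each array 23.3% to 25.7% of signals did not exceed a floor of 85.3, the pooled 25th percentile, below which signals were not distinguished. Of the lung markers, Sftpc, the surfactant protein of type II cells, had signals of 61592 to 84336 and Ager, a marker of type I cells, 22068 to 29087. Pecam1, a marker of endothelium, had 175 to 591, on at least 1 array under the filter described next. Only probe sets with a mean log2 signal over that of the 40th percentile (201) were tested. This left 7309 probe sets, 31 of them ribosomal protein probe sets of 26 genes.

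The other 18 ribosomal protein probe sets were too dim to test, although many of their genes belong to every ribosome. Rpl32, Rpl35a, Rpl38, Rpl39, Rps14, Rps15, Rps20 and the 2 paralogues Rpl39l and Rps27l had no tested probe set, 9 genes in all. The highest signal of Rps14, which is lost in a human myelodysplastic syndrome, was 131 on any array, and the highest signal of Rps20, a protein of the head of the small subunit, was 142. Rpl38, which in mice is needed for the patterning of the skeleton, did not pass 78.3 with 1 probe set and reached 269 with the other. In all, 2 of the 18 probe sets, 1 of Rpl38 and 1 of Rps4x, were at or under the floor on all 8 arrays. These signals belong to the probe sets and give no level for the genes.

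The same gene could be bright with 1 probe set and dim with another. Rps4x, the X-linked form of a protein of the small subunit, had signals between 22408 and 30570 with probe set 100780_at, whereas its other 4 probe sets never passed 214. Rps24, in which mutations cause Diamond-Blackfan anaemia in people, had 28173 to 35187 with 97696_r_at and 90.9 to 208 with 93121_at. Rpl7 had 17931 to 22023 with 97695_s_at and 14.5 to 94.1 with 97697_at. There were 10 genes with several probe sets, 24 probe sets in all, and among them a change is reported per probe set. The bright probe sets of Rpl7 and Rps24 are annotated with the same source sequence, so their values may not be separate readings of 2 genes.

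The tested ribosomal protein probe sets fell into a bright and a dim class. The mean signal was over 512 for 25 and under 512 for 6, and the 6 were Rpl7l1, Rps13, Rps29 and the weaker probe sets of Rpl19, Rpl22 and Rps4l. The median residual standard deviation (SD) between arrays of a group was 0.146 on the log2 scale for the 25 and 0.56 for the 6. It was 0.179 over all 31 and 0.229 over all tested probe sets. The brightest probe set was that of Rpl41, a very short peptide of the large subunit, with 65716 and 66851 on the RA-Dex arrays, 62993 and 63785 on the RA arrays, 68148 and 62246 on the Dex arrays, and 62398 and 77104 on the Dil arrays. Both RA-Dex arrays lay just above both RA arrays, and the 2 Dil arrays spanned most of the range.

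The first comparison asks what dexamethasone did to these mRNAs, averaged over the day 3 treatment, with the RA-Dex and Dex arrays on one side and the RA and Dil arrays on the other (n = 4 against 4). No ribosomal protein probe set passed an adjusted p of 0.05 in either direction, 0 of 31, against 7.83% of all tested probe sets (limma, Benjamini-Hochberg over 7309). At an unadjusted p under 0.05 there were 2 of 31 (6.45%), against 1557 of all tested (21.3%). The smallest adjusted p among the members was 0.178. In the same lungs, 311 probe sets of other or unnamed genes rose and 261 fell.

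The differences that were there were small and mostly of one sign. The median log2 fold change of the 31 was -0.12, a fold of 0.923, and that of all tested probe sets was -0.03. It was below 0 in 26 of 31 (83.9%), against 55.1% of all tested probe sets, and the 31 values ran from -0.74 to 0.16. The 25 bright probe sets ran only from -0.28 to 0.06. No p is given for the median, because these probe sets share arrays and are not replicates of each other.

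How large a change could have been missed is given by the intervals of the single probe sets. The 95% interval of the log2 fold change lay wholly within 0.5 of 0, between a fold of 0.707 and 1.41, for 22 of 31 (71%), against 34.4% of all tested probe sets. Among the 25 bright probe sets it was 21 (84%), and for all 25 the interval lay within a 2-fold change. For the 6 dim ones the data allow more, since only 1 of the 6 intervals lay within 0.5.

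**Figure D1:**
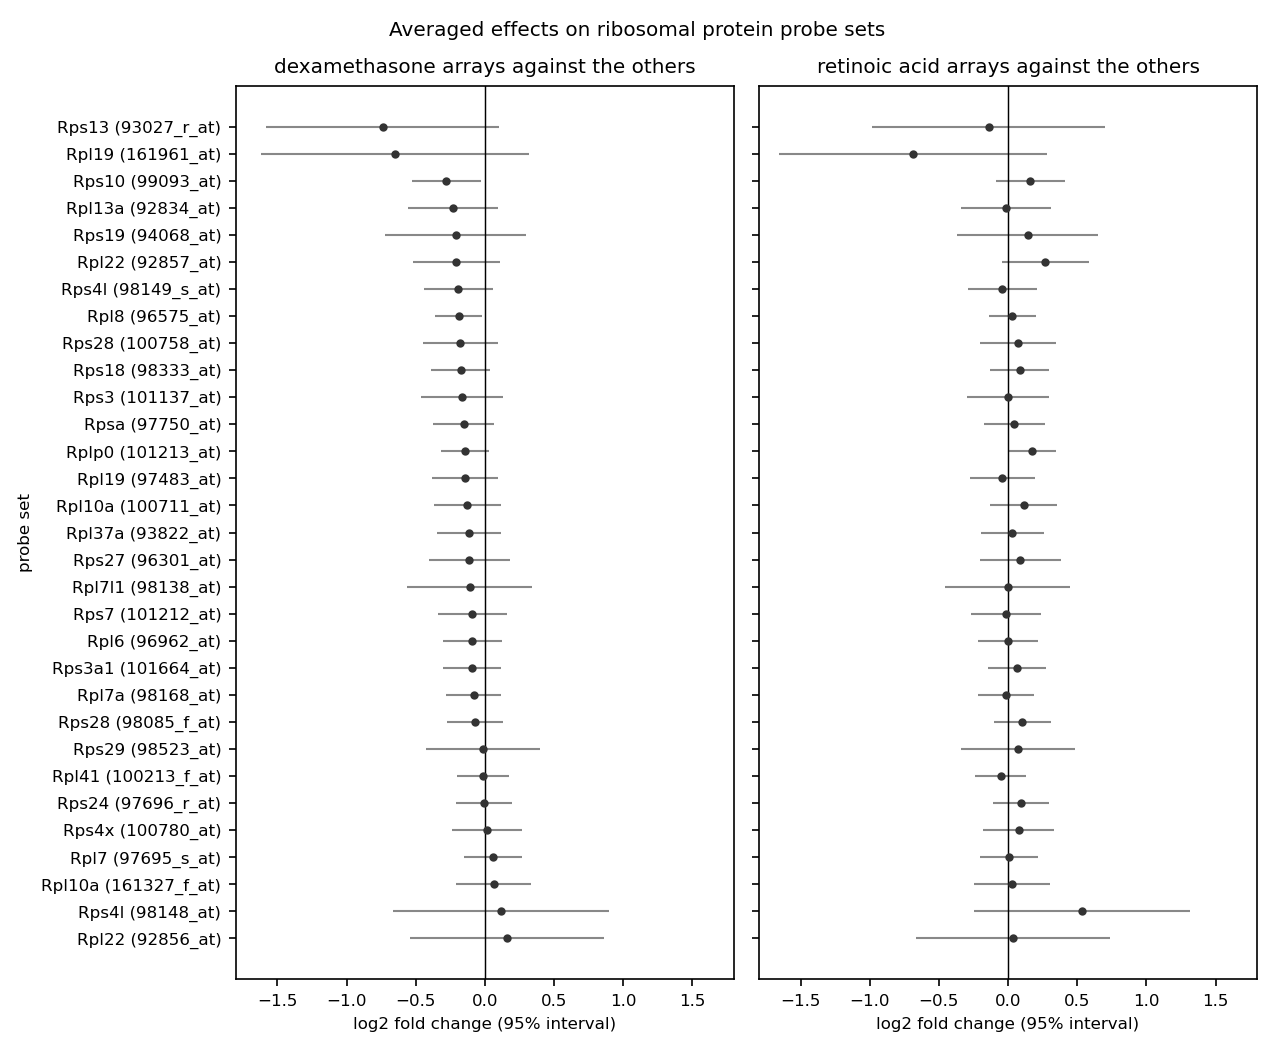
Log2 fold change of each of the 31 tested ribosomal protein probe sets, with its 95% interval, for the dexamethasone arrays against the others and for the retinoic acid arrays against the others; each row is a probe set. The points of the 25 bright probe sets stay close to 0, between -0.28 and 0.06 for dexamethasone, and the wide intervals belong to dim probe sets such as those of Rps13 and Rpl19.

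In the large subunit, Rplp0 encodes the scaffold of the stalk that recruits elongation factors to the ribosome. It had signals of 34423 and 30953 on the RA-Dex arrays and 27239 and 26932 on the Dex arrays, against 32848 and 34660 on the RA arrays and 30421 and 33620 on the Dil arrays. The Dex arrays were the lowest pair, and the RA-Dex arrays lay among the others. Its log2 fold change with dexamethasone was -0.14 ± 0.080 (SE, adjusted p = 0.345 in limma).

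Rpl13a, a large-subunit protein that in human monocytes leaves the ribosome to silence inflammatory mRNAs, had 727 and 755 on the RA-Dex arrays and 799 and 701 on the Dex arrays, against 791 and 957 on the RA arrays and 1002 and 770 on the Dil arrays. Both RA-Dex arrays lay below both RA arrays and below both Dil arrays, whereas the Dex arrays overlapped with them, and the log2 fold change was -0.23 ± 0.15 (SE, adjusted p = 0.425 in limma). Rpl8, a protein close to the peptidyl transferase centre that was picked out after its values were seen, had 24515 and 24231 on the RA-Dex arrays and 27482 and 25054 on the Dex arrays, against 30870 and 30253 on the RA arrays and 26301 and 28205 on the Dil arrays. The RA arrays were high and the RA-Dex arrays low, and its log2 fold change was -0.19 ± 0.077 (SE, unadjusted p = 0.0324, adjusted p = 0.181 in limma).

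Rpl10a forms the stalk on the side of the large subunit where spent transfer RNA leaves. Its 2 probe sets gave log2 fold changes of -0.13 ± 0.11 and 0.06 ± 0.12 (SE), with signals between 10155 and 14743 for the first and between 5995 and 8220 for the second. Rpl22, which in mice is dispensable for general protein synthesis but needed for development of a T cell lineage, also gave both signs. Its probe set 92857_at was at -0.21 ± 0.14 and its dimmer probe set 92856_at at 0.16 ± 0.32, the highest of all 31. The 2 probe sets of Rpl19, a protein that reaches across to the small subunit, gave -0.14 ± 0.11 at signals of 16724 to 25305 and -0.65 ± 0.44 at signals of 67.6 to 663. None of these differences passed the test.

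In the small subunit, Rps10, which sits near the entrance of the mRNA channel, had the largest difference among the bright probe sets. It had signals of 22583 and 18497 on the RA-Dex arrays and 20032 and 16017 on the Dex arrays, against 25530 and 23114 on the RA arrays and 19918 and 24701 on the Dil arrays. Dil replicate a was as low as the Dex arrays, so the 2 sides overlapped. Its log2 fold change was -0.28 ± 0.11 (SE, unadjusted p = 0.0316, adjusted p = 0.178 in limma), with a 95% interval from -0.53 to -0.03.

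Rpsa, a small-subunit protein also known as the laminin receptor, was the only member whose dexamethasone arrays all lay below all other arrays. It had 5073 and 4453 on the RA-Dex arrays and 4949 and 4417 on the Dex arrays, against 5120 and 5627 on the RA arrays and 5103 and 5151 on the Dil arrays. The gap was narrow, and the log2 fold change was -0.15 ± 0.10 (SE, adjusted p = 0.43 in limma). Such a separation downward was found in 1 of 31 members (3.23%), against 7.78% of all tested probe sets, and upward in 0 of 31, against 6.8%.

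Rps18, a protein of the head of the small subunit, had a log2 fold change of -0.17 ± 0.097 (SE) and Rps3, which lies at the mRNA entrance and also acts in DNA repair, -0.16 ± 0.13. Rps27, a zinc finger protein, had -0.11 ± 0.13, with signals between 1172 and 1585. Rps4x and Rps24 were closest to 0 among the bright small-subunit probe sets, at 0.02 ± 0.12 and -0.01 ± 0.091. For these 5 genes adjusted p lay between 0.346 and 0.974 in limma.

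The numerically largest value in the small subunit came from a dim probe set. Rps13, at the interface of the subunits, had 102 and 187 on the RA-Dex arrays and 159 and 221 on the Dex arrays, against 434 and 186 on the RA arrays and 192 and 338 on the Dil arrays. The 2 RA arrays lay far apart, and the log2 fold change of -0.74 ± 0.38 (SE, adjusted p = 0.304 in limma) had an interval from -1.58 to 0.10. Rps29, a zinc finger protein, had -0.01 ± 0.19 with its tested probe set.

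Rps19, the gene most often mutated in Diamond-Blackfan anaemia, varied most among the bright members. It had 12240 and 16958 on the RA-Dex arrays and 16719 and 17846 on the Dex arrays, against 17104 and 28406 on the RA arrays and 22298 and 10225 on the Dil arrays. The 2 arrays of the RA group and the 2 of the Dil group lay further apart than any 2 groups, and the log2 fold change was -0.21 ± 0.23 (SE, adjusted p = 0.681 in limma).

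The second comparison asks what retinoic acid did, averaged over the day 4 treatment, with the RA-Dex and RA arrays against the Dex and Dil arrays (n = 4 against 4). Again 0 of 31 ribosomal protein probe sets passed, against 0.15% of all tested probe sets, 11 in all. None of the 31 had an unadjusted p under 0.05 in limma either, against 460 of all tested (6.29%), and the smallest adjusted p was 0.788. The median log2 fold change was 0.04, a fold of 1.03, against 0.00 for all tested probe sets, and 11 of 31 were below 0. No member had arrays that did not overlap between the 2 sides, against 1.48% of all tested probe sets downward and 0.835% upward.

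The interval of the retinoic acid difference lay within 0.5 of 0 for 25 of 31 members (80.6%), against 47.4% of all tested probe sets, and for 23 of the 25 bright ones (92%). The highest values were 0.53 ± 0.36 for the dim probe set 98148_at of Rps4l, a paralogue of Rps4x, 0.27 ± 0.14 for Rpl22 with 92857_at, and 0.17 ± 0.080 for Rplp0 (SE). The other probe set of Rps4l, 98149_s_at, with signals between 2502 and 3319, gave -0.04 ± 0.11. The lowest values were -0.69 ± 0.44 for the dim probe set of Rpl19, -0.14 ± 0.38 for Rps13 and -0.05 ± 0.084 for Rpl41. Rplp0 came nearest to the threshold, with an unadjusted p of 0.0527 and a 95% interval from -0.0024 to 0.35.

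Between single groups (n = 2 against 2) the picture was the same in count. In Dex lungs against Dil lungs 0 of 31 passed, against 3.23% of all tested probe sets, and the median log2 fold change was -0.16, against -0.02 for all tested. In RA-Dex lungs against RA lungs 0 of 31 passed, against 3.5%, and the median was -0.05, the same to 2 decimals as that of all tested probe sets. In RA-Dex lungs against Dil lungs 0 of 31 passed, against 4.01%, with a median of -0.08 against -0.05. These 3 comparisons had 2, 1 and 0 members at an unadjusted p under 0.05 in limma, against 14.9%, 15.8% and 16.2% of all tested. They share arrays with each other and with the averaged comparison, so they are not separate evidence.

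For retinoic acid without dexamethasone, RA lungs against Dil lungs, 0 of 31 passed, against 0.0274% of all tested probe sets, and the median was 0.0050, against 0.0100 for all tested. In RA-Dex lungs against Dex lungs 0 of 31 passed, against 0.0958%, with a median of 0.06 against -0.01. Each of the 2 comparisons had 1 member at an unadjusted p under 0.05 in limma, against 7.99% and 4.13% of all tested. In RA-Dex against Dex that member was Rplp0, at 0.27 ± 0.11 (SE, unadjusted p = 0.0362, adjusted p = 1).

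**Figure D2:**
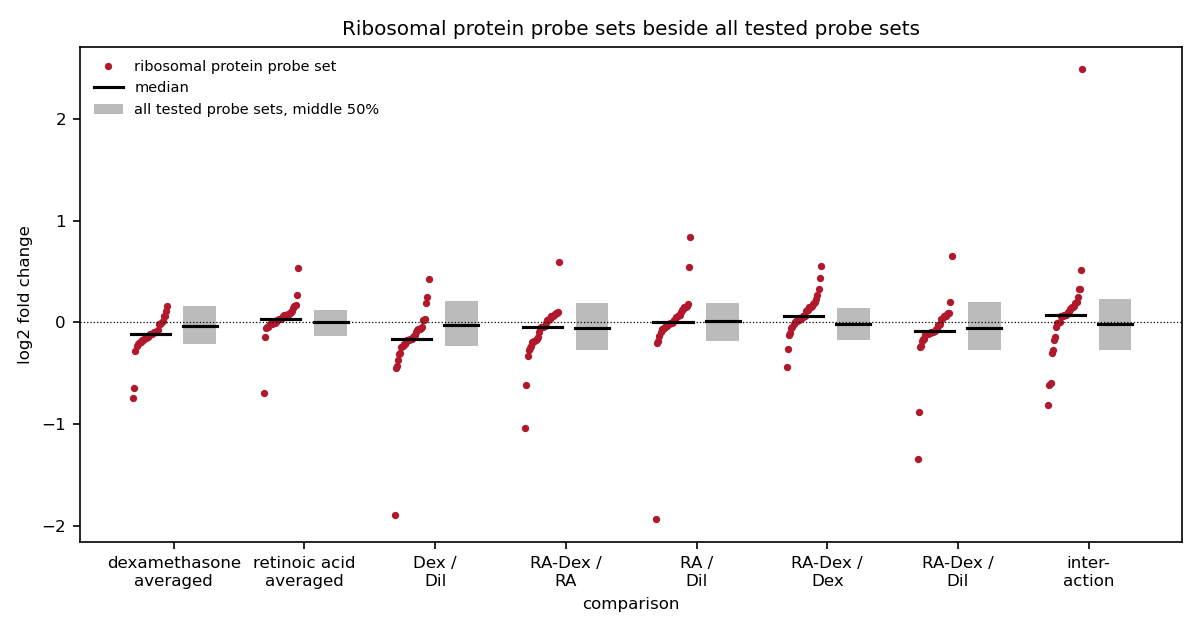
Log2 fold changes of the 31 tested ribosomal protein probe sets in each of the 8 comparisons (points), beside those of all 7309 tested probe sets. The members sit around 0 in every comparison, with medians between -0.16 (Dex against Dil) and 0.07 (interaction), and the far points include the dim probe sets of Rpl19 and Rps13.

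Single probe sets that stood out between single groups were few. In Dex lungs against Dil lungs the dim probe set 161961_at of Rpl19 was at -1.89 ± 0.62 (SE, unadjusted p = 0.0114, adjusted p = 0.155 in limma). It had 128 and 141 on the Dex arrays, against 375 and 663 on the Dil arrays, and 355 and 109 on the RA-Dex arrays, against 67.6 and 199 on the RA arrays. The bright probe set of the same gene, 97483_at, had 21153 and 16724 on the Dex arrays, against 21318 and 25305 on the Dil arrays, a log2 fold change of -0.30 ± 0.15. With both probe sets the Dex arrays lay below the Dil arrays, by a wide gap with the dim one and a narrow gap with the bright one. The dim probe set was as low in RA lungs against Dil lungs, at -1.93 ± 0.62 (SE, unadjusted p = 0.0101, adjusted p = 0.457 in limma). There it was the only member at an unadjusted p under 0.05. Its signal of 67.6 on RA replicate a was under the floor and entered every comparison with the RA group as 85.3.

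Rps28, a small protein near the exit of the mRNA channel, had 33771 and 28437 on the Dex arrays, against 33758 and 51774 on the Dil arrays, with probe set 100758_at. The value of Dil replicate b was the highest of all 8, and the other Dil array was level with the higher Dex array. The log2 fold change was -0.43 ± 0.18 (SE, unadjusted p = 0.032, adjusted p = 0.272 in limma). Without Dil replicate a this probe set was at -0.74 in Dex against Dil and at -0.33 in the averaged comparison. That fit leaves 1 Dil array, so only the size of the difference is given. The second probe set of Rps28, 98085_f_at, had 44750 and 41033 on the Dex arrays, against 42416 and 54886 on the Dil arrays.

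In RA-Dex lungs against RA lungs Rpl8 was at -0.33 ± 0.11 (SE, unadjusted p = 0.0128, adjusted p = 0.162 in limma), with the arrays given above. In Dex lungs against Dil lungs both Dex arrays lay below both Dil arrays for 9 of 31 members (29%), against 24.6% of all tested probe sets, and above for 0 of 31, against 21.1%. In RA-Dex lungs against RA lungs the arrays lay below for 6 of 31 (19.4%), against 26.3%, and above for 2 of 31 (6.45%), against 18.5%. The shares downward were close to those of all tested probe sets.

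Whether retinoic acid altered the dexamethasone difference was tested as an interaction, the difference in RA-Dex against RA minus that in Dex against Dil. No member passed, 0 of 31 against 0.0137% of all tested probe sets. An unadjusted p under 0.05 in limma was found for 1 of 31, against 5.6% of all tested. The median was 0.07, against -0.02 for all tested probe sets. The largest values were 2.49 ± 0.88 for the dim probe set of Rpl19 (SE, adjusted p = 0.811), 0.51 ± 0.25 for 100758_at of Rps28 and 0.33 ± 0.29 for 92857_at of Rpl22. The lowest were -0.81 ± 0.46 for Rps19, -0.61 ± 0.71 for the dim probe set of Rps4l and -0.59 ± 0.76 for Rps13. Only 3 of 31 intervals of the interaction lay within 0.5 of 0, so this comparison bounds little.

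The spread between the 2 arrays of a group was as large as the shift between groups. The median deviation of the 31 members from their own 8-array means was 0.02 and -0.07 on RA-Dex arrays a and b, -0.03 and 0.12 on RA arrays a and b, -0.01 and -0.17 on Dex arrays a and b, and 0.00 and 0.07 on Dil arrays a and b. For all tested probe sets the same medians lay between -0.02 and 0.04. Dex replicate b was the low array and RA replicate b the high one.

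Dex replicate b had the lowest signal of the 8 arrays for 17 of 31 members, all of them bright, whereas it was the lowest array for 10.1% of all tested probe sets. RA replicate b was the highest array for 10 members and Dil replicate b for 8. Among the 25 bright probe sets the b array was below the a array for 22 in the Dex group and for 16 in the RA-Dex group, and above it for 19 in the RA group and for 15 in the Dil group. For all tested probe sets, the shares of the highest array and of these directions were not determined. Without Dex replicate b the median in Dex against Dil was -0.06, against -0.16 with it.

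The bright members were also sorted by which array of each pair was higher. With so few pairs, some patterns must recur, and their shares among all tested probe sets were not determined. The sorting therefore does not show a feature particular to these members. Some signs rest on small differences, such as -0.0133 for Rpl6 and -0.0168 for Rpl8 (log2, b minus a, RA-Dex). Rpl7 and Rps24, listed together below, may not be separate readings, as stated above. For 8 probe sets (Rplp0, Rpsa, Rps3, Rps3a1, Rps7, Rpl6, and 1 each of Rpl19 and Rps28) the b array was the lower one in RA-Dex and Dex and the higher one in RA and Dil. For 5 (Rps4x, Rpl13a, Rps24, Rpl7 and 1 of Rpl10a) it was the higher one in RA-Dex and RA and the lower one in Dex and Dil. For 4 (Rps10, Rps18, Rpl8 and 1 of Rps28) it was the higher one in Dil and lower in the other groups. Ratios of 3′ to 5′ signal for beta-actin, a measure of RNA integrity, were 1.56 and 1.59 on the RA-Dex arrays, 1.39 and 1.58 on the RA arrays, 1.86 and 1.49 on the Dex arrays, and 1.69 and 1.36 on the Dil arrays. The same ratio for Gapdh was 1.65 and 1.62 on the RA-Dex arrays, 1.93 and 1.38 on the RA arrays, 1.72 and 1.66 on the Dex arrays, and 1.53 and 1.55 on the Dil arrays. For the transferrin receptor it varied widely, at 10.7 and 4.56 on the RA-Dex arrays, 1.37 and 1.46 on the RA arrays, 5.15 and 2.42 on the Dex arrays, and 11.5 and 3.29 on the Dil arrays. The part of these ratios in the patterns was not tested.

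**Figure D3:**
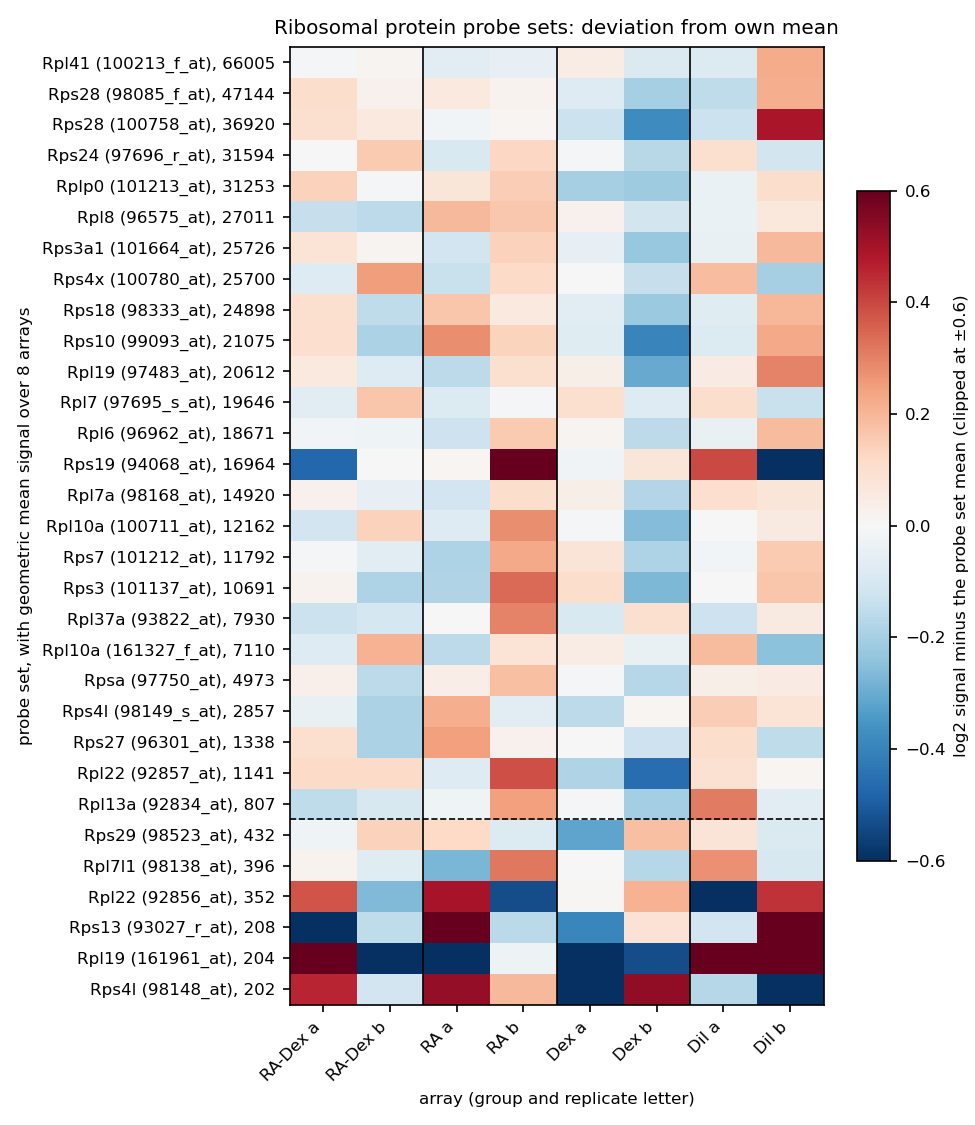
Heat map of the 31 tested ribosomal protein probe sets (rows, with mean signal) on the 8 arrays (columns, by group and replicate letter). Colour is the log2 signal minus the mean of the probe set, clipped at the ends of the scale. Most rows are low on Dex replicate b, the lowest array for 17 of 31. The strongest colours belong to dim rows such as those of Rps13 and Rpl19, and to the bright row of Rps19.

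Probe sets whose annotation lists several symbols, at least 1 of them a ribosomal protein gene, were outside the rule. There were 39, of which 34 were tested. In limma 0 of 34 passed in any of the 8 comparisons, where 0.0137% to 7.83% of all tested probe sets passed. Their median log2 fold change was -0.08 with dexamethasone and 0.10 with retinoic acid. The values ran from -0.24 to 1.02 with dexamethasone and from -0.58 to 0.42 with retinoic acid. At an unadjusted p under 0.05 there were 4 and 2 of 34, against 21.3% and 6.29% of all tested. They cannot be assigned to 1 gene.

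Related lists were read in the same fit, averaged dexamethasone effect first. Translation factors and other mRNAs with a pyrimidine tract had 0 of 12 probe sets past the threshold in limma, against 7.83% of all tested probe sets. At an unadjusted p under 0.05 there were 2, against 21.3% of all tested, and the median was -0.04. Those 2 were Eif4b, at 0.47 ± 0.175, and Eif3e, a subunit of the initiation factor that binds the small subunit, at 0.35 ± 0.147 (SE). Both were upward without passing (adjusted p = 0.147 and 0.198 in limma), whereas 8 of the 12 were below 0. Pabpc1, the poly(A)-binding protein, was at 0.15 ± 0.12, Eef1d, a subunit of the elongation factor complex, at -0.23 ± 0.15, and Naca at -0.18 ± 0.155 (SE). Eif3e passed in RA-Dex against Dil alone among the 8 comparisons. It had 755 and 977 on the RA-Dex arrays, against 472 and 431 on the Dil arrays, and rose by 0.93 ± 0.21 (SE, adjusted p = 0.0331 in limma).

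In the list for ribosome biogenesis and RNA polymerase I, 4 of 49 probe sets fell with dexamethasone and 0 rose. Of all 7309 tested, 261 fell and 311 rose. The share of calls in either direction was near the 7.83% of all tested probe sets. The median was -0.22, against -0.03 for all tested probe sets, and 43 of 49 were below 0 (87.8%), against 55.1%. Gar1, a protein of the particles that modify ribosomal RNA, fell to 1317 and 1189 on the RA-Dex arrays and 1150 and 1288 on the Dex arrays, against 2931 and 2231 on the RA arrays and 2145 and 1872 on the Dil arrays. All 4 dexamethasone arrays were below the other 4, and the log2 fold change was -0.88 ± 0.13 (SE, adjusted p = 0.00206 in limma).

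Nhp2, a partner of Gar1 in the same particles, fell at -0.62 ± 0.16 (SE of the log2 fold change, adjusted p = 0.0404 in limma). Exosc5, a subunit of the RNA exosome, fell with -0.49 ± 0.13 (adjusted p = 0.0416), and Ubtf, the factor that opens ribosomal DNA to RNA polymerase I, with -0.43 ± 0.12 (adjusted p = 0.0476). Nop56, a core protein of the methylating particles, was at -0.86 ± 0.24 and did not pass (adjusted p = 0.0557). In RA-Dex against RA 1 of 49 fell, Gar1 at -1.03 ± 0.19 (adjusted p = 0.0118 in limma), against 3.5% of all tested probe sets called. In Dex against Dil 0 of 49 passed in limma, against 3.23% of all tested. At an unadjusted p under 0.05 in limma there were 5 of 49 (10.2%) in Dex against Dil, against 14.9% of all tested. In RA-Dex against RA there were 15 of 49 (30.6%), against 15.8%. In the averaged comparison there were 13 of 49 (26.5%), against 21.3%. The difference between this list and the ribosomal proteins was not tested.

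Mitochondrial ribosomal proteins, which build the separate ribosome of mitochondria, had 1 of 59 probe sets called in the averaged comparison, against 7.83% of all tested probe sets, and a median of -0.10. That was Mrpl17, which fell to 313 and 297 on the RA-Dex arrays and 375 and 284 on the Dex arrays, against 478 and 551 on the RA arrays and 585 and 482 on the Dil arrays (log2 fold change -0.73 ± 0.19 SE, adjusted p = 0.04 in limma). Mrps18a, Mrpl36, Mrpl52 and Mrpl23 were at -0.62, -0.49, -0.45 and -0.43 and did not pass, with adjusted p between 0.063 and 0.089 in limma.

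A growth control list, of regulators of translation and also cell cycle genes such as Cdkn1a, was read for comparison. In it 3 of 16 probe sets, of the 2 genes Ddit4 and Cdkn1a, rose while 0 fell, with a median of 0.10. Among the 7309 tested there were 311 rises and 261 falls. Ddit4, an inhibitor of mTOR induced by glucocorticoids, had 3604 and 3478 on the RA-Dex arrays and 3513 and 3522 on the Dex arrays, against 765 and 844 on the RA arrays and 782 and 774 on the Dil arrays. The 2 sides were far apart, and it rose 4.46-fold (log2 fold change 2.16 ± 0.11 SE, adjusted p = 1.49e-06 in limma). Cdkn1a, which halts the cell cycle, rose with both probe sets, at 1.94 ± 0.14 and 1.22 ± 0.20. Akt1, a kinase that activates mTOR, was at -0.40 ± 0.11 and did not pass (adjusted p = 0.0542), and Tsc1, a subunit of the complex through which Ddit4 acts, was at 0.38 ± 0.19 (adjusted p = 0.292).

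**Figure D4:**
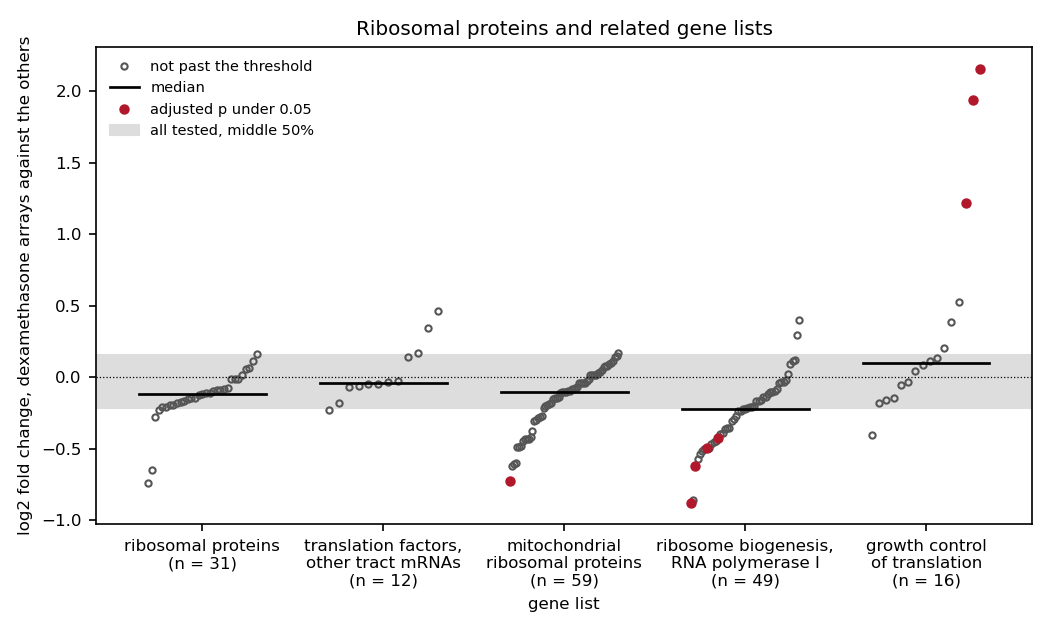
Log2 fold change of the dexamethasone arrays against the others for ribosomal protein probe sets and for the related lists; each point is a tested probe set. Ribosomal proteins cluster just below 0 (median -0.12), the ribosome biogenesis list reaches down to Gar1 at -0.88, and the growth control list holds the rises of Ddit4 and Cdkn1a.

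Marker mRNAs of other cell types also differed with dexamethasone. In bulk tissue fewer cells of a type and less RNA per cell cannot be told apart. Of 11 tested lymphocyte and leukocyte marker probe sets 8 fell, against 261 of all 7309 tested, with a median of -0.81. The signal was also summed over all 33 probe sets of the list, tested or not. The sum was 11416 to 12254 on the RA-Dex arrays and 9153 to 9856 on the Dex arrays, against 16256 to 17492 on the RA arrays and 15102 to 15896 on the Dil arrays. Of 12 macrophage probe sets 2 fell, against the same 261 of 7309, with a median of -0.33. Of 19 probe sets for dividing cells 6 fell and 1 rose, against 261 falls and 311 rises among the 7309 tested. Their median was 0.25, however, and only 7 were below 0. With retinoic acid, all 19 probe sets for dividing cells were below 0, against 50% of all tested probe sets, with a median of -0.52. Of the 19, 1 passed, against 0.15% of all tested probe sets. The part of these cells in the ribosomal protein values was not tested.

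Skeletal muscle markers were highest on the Dil arrays, by the signal summed over all 24 probe sets of the list, of which 7 were tested. The sums were 5768 and 5930 on the RA-Dex arrays, 6528 and 5024 on the RA arrays, 5994 and 5222 on the Dex arrays, and 8934 and 9296 on the Dil arrays. The part of muscle in the comparisons against Dil was not tested.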

How the data were processed

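The deposited values are intensity signals per probe set, which the authors had scaled so that all arrays share a trimmed mean near 800.4 (seen from the values; scaling software: not given in the sources used here). They were not normalized again. Of 12488 probe sets, 66 controls were left out. Signals under the pooled 25th percentile (85.3) were set to it and taken as log2, and probe sets with a mean above the pooled 40th percentile (signal 200.8) were tested. All 8 arrays entered 1 fit in limma 3.58.1 (R 4.3.3) with a mean per group, 4 residual and 6.69 prior degrees of freedom, eBayes with an intensity trend, two-sided, in 8 comparisons. Benjamini-Hochberg adjustment ran over the 7309 probe sets of each comparison. Errors are standard errors of the fit. The number of arrays limits the precision. Symbols came from the array's annotation, checked by Entrez ID. The procedure was tested on simulated data. The changes put in were larger than most differences of the members, so smaller ones were not tested.

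The members and lists were chosen with earlier results of these data known. Named were members past the threshold, the 3 highest and 3 lowest in both averaged comparisons and the interaction, a set of always given ribosomal proteins where measured, all probe sets of a gene with several, and up to 5 probe sets of each list by smallest p with dexamethasone. Rpl8, Rps3a1, Rps7, Rpl6 and the other members named outside this rule were chosen after their values were seen. Rplp1, Rplp2 and other members of the set without a single-symbol probe set were not analysed here. Alternatives were quantile normalization, median centring, no filter, a stricter filter, a pseudocount, no trend, the replicate letter as a block, 1 value per gene, and leaving out each array. Leaving out both Dil arrays was an alternative added later, with the data seen.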

Additional observations from a re-analysis of the deposited data

How the results depend on the processing

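The count of ribosomal protein probe sets past the threshold was 0 in all 8 comparisons. It was also 0 in every alternative run that kept all arrays. It did not stay 0 without Dil replicate a, a fit that leaves 1 Dil array and so bears no call. In that fit 100758_at of Rps28 was at -0.33 in the averaged dexamethasone comparison and at -0.74 in Dex against Dil. Medians over the members with 1 array left out ran from -0.16 to -0.06 for averaged dexamethasone, from 0.01 to 0.08 for averaged retinoic acid, from -0.23 to -0.060 for Dex against Dil, from -0.093 to 0.073 for RA-Dex against RA, from -0.08 to 0.09 for RA against Dil, from 0.02 to 0.14 for RA-Dex against Dex, from -0.15 to -0.02 for RA-Dex against Dil, and from 0.016 to 0.19 for the interaction. Those that moved by more than the spread of the array medians (SD 0.086) were -0.060 for Dex against Dil (Dex replicate b left out), 0.073 for RA-Dex against RA (RA replicate b left out), and the interaction without RA replicate b (0.18) or without Dex replicate a (0.19), and the cause was not tested. In the other alternatives the median for averaged dexamethasone lay between -0.13 and -0.08, and that for averaged retinoic acid between 0.02 and 0.07. Of all tested probe sets, 572 were called for averaged dexamethasone, and between 309 and 588 in the alternatives, with 349 without the filter on low signal and 309 without RA-Dex replicate b. With the replicate letter as a block the members' medians were -0.12 for averaged dexamethasone and 0.04 for averaged retinoic acid, and 0 members passed. The differences between b and a correlated across probe sets at -0.22 to 0.14 between groups, and no label says that the letters mark a shared batch, so they were not used as a pairing. Leaving out both Dil arrays, which changes only the estimate of the spread, gave 0 members in RA-Dex against RA and 0 in RA-Dex against Dex. Signal limits the precision of single probe sets: the residual SD was 0.56 for the 6 members under a signal of 512, against 0.146 for the others.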
